A study of Mus musculus with 24 samples.

Results

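The genes of fatty acid uptake and triglyceride synthesis described here were 10: Cd36, Scarb1, Npc1l1, Fabp1, Fabp2, Acsl5, Mogat2, Dgat1, Dgat2 and Plin2. They were found by gene symbol among the 56691 genes of the count table, of which 34471 had at least 1 count, and all 10 were present. RNA from the distal jejunum of 24 mice was sequenced, with 3 mice in each of 8 groups. The groups combined sex (male or female), genotype (wild type or Ptk6-/-) and treatment (100 mM succinate in the drinking water for 7 days, or regular water as control). All mice were young adults of matched age on a C57BL/6 background, taken from different litters of 1 colony. The Ptk6-/- mice carried a germline knockout, so that the kinase PTK6 was missing from every tissue and not from the epithelium alone. Succinate is sensed by tuft cells, chemosensory epithelial cells that start a type 2 immune response in the small intestine.

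Enterocytes absorb the fatty acids and monoacylglycerols released from dietary fat and build them back into triglyceride, which leaves the cell in chylomicrons or waits in lipid droplets. Membrane proteins take up fatty acids and sterols, fatty acid binding proteins carry fatty acids through the cytosol, and acyl-CoA synthetases activate them. Monoacylglycerol and diacylglycerol acyltransferases then add the acyl chains, and perilipins coat the droplets that form. In the mouse, these genes are used unevenly along the intestine, so the position of a tissue piece bears on their levels.

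Total counts lay between 8080321 and 52824743 per library (median 43017686.5). Ptk6 had 7 to 61 counts in the Ptk6-/- libraries and 284 to 2405 in the wild type libraries, so every library matched its genotype label. None of the 15 enterocyte markers was at 0 in any library, 1 of them was under 1 FPKM in 1 library, and their summed level was 4966 to 16824 FPKM (fragments scaled by transcript length and by the mapped total of the library). The ribosomal RNA gene Rn18s-rs5 took 51.2% of the counts of male wild type control replicate 1 and 29.7% of those of male Ptk6-/- succinate replicate 1 (the library with the fewest counts). The share enters the total by which FPKM divides. Female wild type succinate replicate 2 stood apart: its 9 heart muscle markers summed to 4203 FPKM, against 8.08 to 37.2 FPKM in the other libraries. It also held the Y-linked Eif2s3y at 5.14 FPKM together with Xist at 3.11 FPKM, which goes against its label as a library of the female jejunum alone. Many of the members' test results that rest on this library, and most of their nearest genes, are given with and without it. The same holds for Clps and for the pathway lists for succinate over all mice. Values given only with it include the Mogat2 difference of the succinate effect between the sexes and Plin2 in treated females. They also include the succinate values of Acsl5, Scarb1 and Dgat2 over all mice. The 6 lung markers summed to 8.45 to 20.2 FPKM in 7 libraries, which were the 6 female Ptk6-/- libraries and female wild type succinate replicate 3, and to at most 0.281 FPKM in the other 17. In females the lung signal therefore ran along genotype, apart from that 1 library, and its part in the female comparisons was not tested. In bulk tissue, fewer cells of a type and less RNA per cell cannot be told apart.

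The table of RefSeq promoter sequences (GRCm38.p6) held 6 of the 10 genes. The 250 bases before the start are shown for Fabp1 and Fabp2, since these genes for related proteins had fold changes with succinate of opposite sign in females and over all mice, and of the same sign in males. The windows are chr6:71199629-71199878 for Fabp1 and chr3:122894822-122895071 for Fabp2, both on the plus strand. Capitals mark matches on either strand to 5 motifs. The TATA box was searched as TATAAA and the nuclear receptor half-site as AGGTCA. The GATA site was searched as AGATAA and the CDX site as TTTATG. For HNF4 the longer site CAAAGTCCA was used, and no match overlapped another in these windows.
Fabp1: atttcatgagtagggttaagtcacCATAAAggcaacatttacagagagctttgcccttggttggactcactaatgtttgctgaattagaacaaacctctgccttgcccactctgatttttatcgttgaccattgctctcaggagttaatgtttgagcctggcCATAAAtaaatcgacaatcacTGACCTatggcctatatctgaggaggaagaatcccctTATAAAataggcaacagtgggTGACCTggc
Fabp2: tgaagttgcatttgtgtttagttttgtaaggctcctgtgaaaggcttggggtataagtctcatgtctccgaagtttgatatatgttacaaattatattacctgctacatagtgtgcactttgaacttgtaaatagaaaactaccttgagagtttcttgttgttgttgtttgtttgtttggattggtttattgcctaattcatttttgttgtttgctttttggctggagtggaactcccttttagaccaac
The Fabp1 window held TATAAA from -30 to -25 relative to the start, AGGTCA read on the minus strand from -67 to -62 and from -9 to -4, and TTTATG read on the minus strand from -226 to -221 and from -88 to -83. None of the 5 motifs was in the Fabp2 window, which says only that these letters are not there. Among the 32851 windows of this length in the table, 12.4% held the TATA box, 14.0% the half-site, 9.99% the GATA site, 10.8% the CDX site and 0.384% the HNF4 site. These matches are a description of the letters and not of binding.

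Levels between genes were compared in FPKM, which is per length. Fabp2, the intestinal fatty acid binding protein, was the most abundant, with a median of 3052 FPKM over the 24 libraries (range 524 to 9258). A middle set followed with overlapping ranges: the diacylglycerol acyltransferase Dgat1 (median 174 FPKM), the acyl-CoA synthetase Acsl5 (154), the sterol importer Npc1l1 (146), the liver-type binding protein Fabp1 (138) and the monoacylglycerol acyltransferase Mogat2 (128). Lower levels were found for Dgat2, the second diacylglycerol acyltransferase (median 27.6 FPKM), and for Plin2, a lipid droplet coat protein (10.9). The fatty acid transporter Cd36 had a median of 3.01 FPKM, and the scavenger receptor Scarb1, which takes up lipids from lipoproteins, had 0.696 FPKM. Dgat2 was thus the least abundant of the 3 acyltransferase genes, and Npc1l1 the most abundant of the 3 membrane genes.

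**Figure D1:**
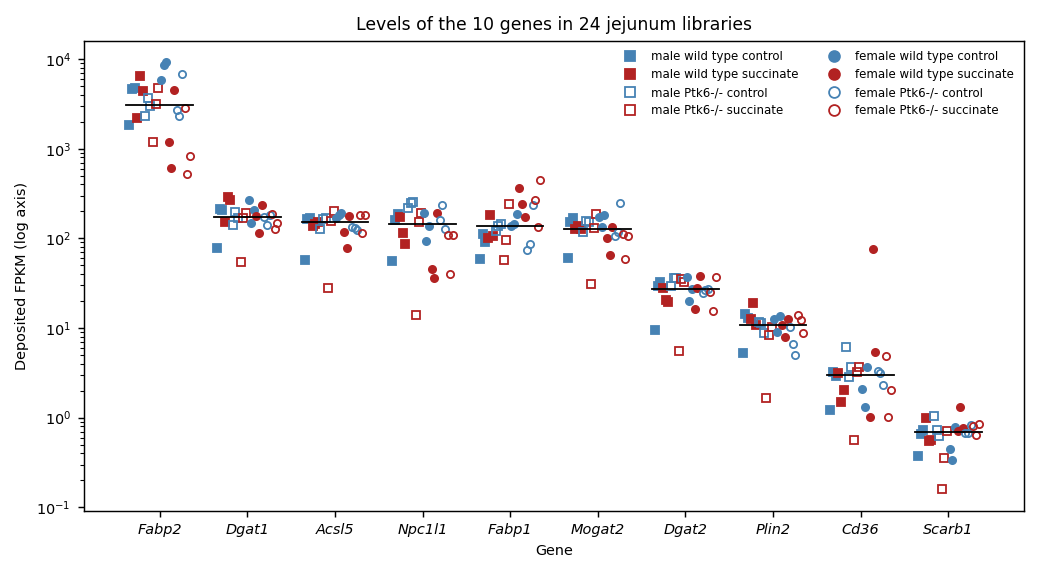
Deposited FPKM (log axis) of each gene, ordered by its median, with 1 point per library, colours for treatment, squares for males, circles for females, open symbols for Ptk6-/- and a line at the median over 24 libraries. The 2 lowest points of most genes in males are the libraries rich in Rn18s-rs5, and the Cd36 point at 76.7 FPKM is female wild type succinate replicate 2.

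Within a gene, libraries were compared as CPM (counts scaled to the library total) with TMM normalization, which removes the effect of Rn18s-rs5 on the total. On this scale Fabp2 ranged 18.7-fold between its lowest and highest library and Npc1l1 6.69-fold. Fabp1 ranged 5.89-fold and Mogat2 5.23-fold. The ranges of Acsl5, Dgat2 and Dgat1 were 2.40-fold, 2.46-fold and 2.53-fold. For each of the 10 genes, all 7 pairs of neighbours in the order of the 8 group means overlapped in their libraries, so no gene gave a break between neighbouring groups beyond their spread.

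**Figure D2:**
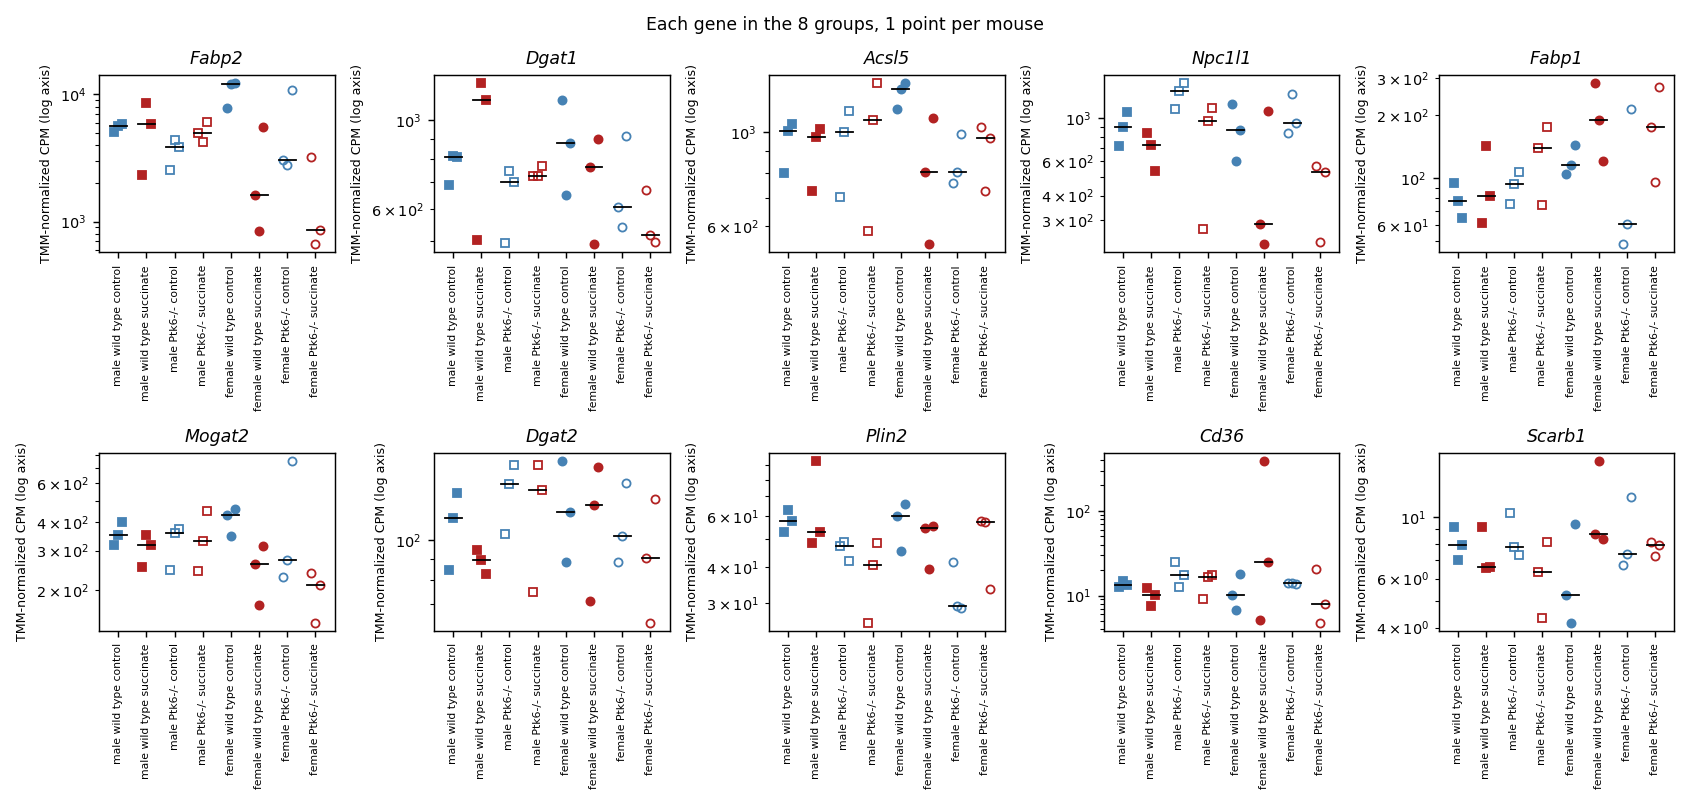
TMM-normalized CPM (log axis, different for each gene) of the 10 genes in the 8 groups, with 1 point per mouse and a line at the group median. The female succinate groups of Fabp2 reach down to 663 CPM, and replicates within a group often differ more than the groups do.

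A gene counted as called when edgeR's quasi-likelihood test gave it an adjusted p under 0.05 over all genes tested, together with a change of at least 2-fold. In all 15 comparisons, 0 of the 10 genes was called, beside 0% to 0.739% of all genes tested, so 0 is near that share. DESeq2 also called 0 in each, and limma voom called 0 in 14 comparisons and 2 in the control females. Of the 150 pairs of gene and comparison, 18 (12%) had an unadjusted p under 0.05, and these are described by gene further on. Comparisons that share groups are not independent of each other.

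The first question was whether loss of Ptk6 changed these genes without treatment. In control males 0.739% of 19218 genes were called, 25.2% had an unadjusted p under 0.05 and 31.4% had groups whose libraries did not overlap. Of the members, 3 had such a p and 3 did not overlap, in both cases Fabp2, Npc1l1 and Plin2. The length slope of a library is that of its log2 CPM, relative to the mean over libraries, on log2 of gene length. In control males it was 0.143 to 0.215 in Ptk6-/- and -0.044 to 0.006 in wild type libraries, without overlap. With an offset for gene length, edgeR called 52 genes there in place of 142. For control females the shares over all genes were 0.0158%, 11.1% and 18.9%, and the members gave 1 with such a p (Plin2) and 2 without overlap (Plin2 and Acsl5). The same genotypes were compared under succinate. In succinate-treated males 0% of genes were called, 2.72% had an unadjusted p under 0.05 and 8.66% did not overlap, with 0 and 1 members (Plin2) respectively. In succinate-treated females the shares were 0%, 4.52% and 10.8%, with 1 member at such a p (Cd36) and 1 without overlap (Scarb1).

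The second question was the effect of succinate. Of the genes tested in wild type males, 0% were called, 4.07% had an unadjusted p under 0.05 and 8.77% did not overlap, and the members gave 0 and 1 (Cd36). In Ptk6-/- males the shares were 0%, 7.75% and 23%, and the members gave 0 and 0. Wild type females had 0%, 7.77% and 13.3%, with 2 members at such a p (Cd36 and Fabp2) and 3 without overlap (Fabp2, Mogat2 and Acsl5). Ptk6-/- females had 0.0879%, 10.7% and 21.2%, with 1 member in each (Npc1l1). With 10 members, each count is read beside these shares over all genes, and none was a call.

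Comparisons over all 24 mice used 1 fit with 8 groups. For succinate 0.728% of 21694 genes were called and 16.1% had an unadjusted p under 0.05, against 0 and 4 members (Npc1l1, Mogat2, Fabp2 and Fabp1). For genotype the shares were 0.0184% and 13.4%, against 0 and 1 (Plin2). For sex they were 0.36% and 15.3%, against 0 and 1 (Fabp1). The difference of the succinate effect between the sexes gave 0.0738% and 8.27%, against 0 and 3 members (Fabp2, Cd36 and Mogat2). Of the other interactions, that of sex and genotype in controls gave 0% and 4.64% of genes with 0 and 0 members, and that of genotype and succinate in males gave 0% and 3.8% with 0 and 0. Genotype and succinate in females gave 0% and 6.46% with 0 and 1 members (Cd36). The median log2 fold change of the members for succinate was -0.08, beside -0.00 for all genes.

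**Figure D3:**
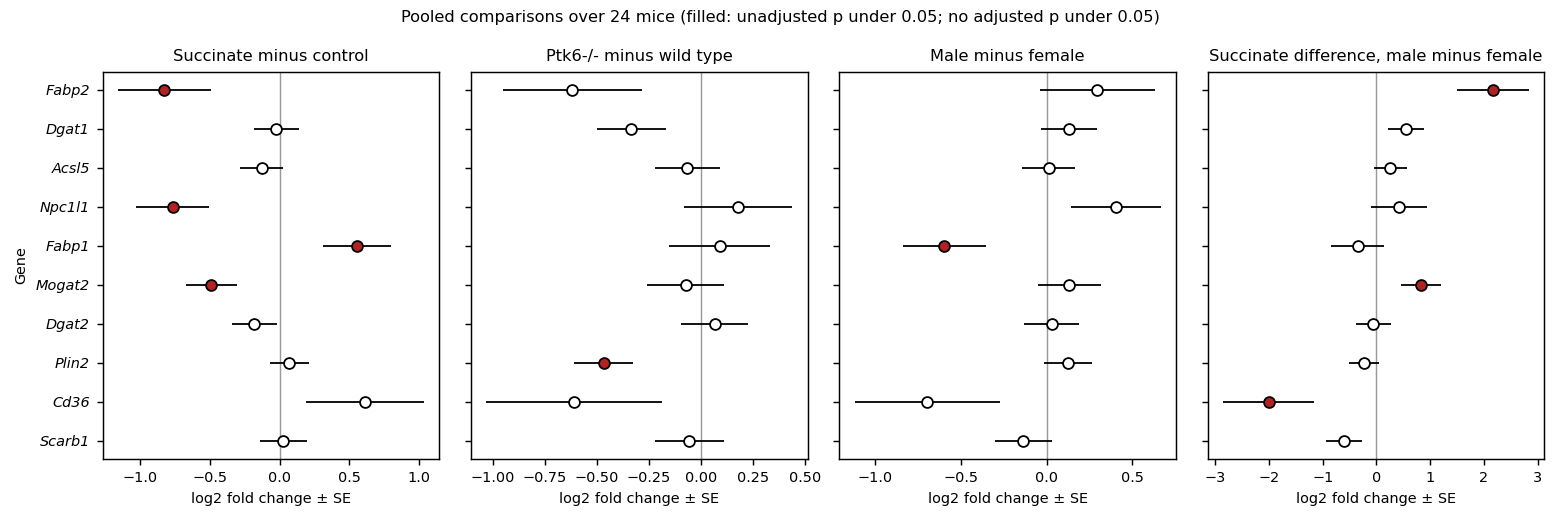
Log2 fold change of each gene with its standard error for succinate, genotype, sex and the difference of the succinate effect between males and females, over 24 mice. Filled points have an unadjusted p under 0.05 (4, 1, 1 and 3 genes), and no adjusted p was under 0.05.

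Of the fatty acid binding proteins, Fabp2 in control females was at 7764, 12002 and 12393 CPM in wild type mice and at 3073, 2789 and 10803 CPM in Ptk6-/- mice. With succinate it was at 1632, 840.1 and 5529 CPM in wild type females and at 3218, 663 and 864 CPM in Ptk6-/- females. The wild type female groups did not overlap, and 2 of the 3 treated libraries lay far under the third. Their log2 fold change was -1.99 ± 0.72 (SE, n = 3 and 3, edgeR, adjusted p = 0.617, 0.0262 before adjustment). In the Ptk6-/- females it was -1.85, and the groups overlapped.

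In males Fabp2 was at 5102, 5688 and 5872 CPM in wild type controls and at 2323, 8646 and 5882 CPM with succinate. Male Ptk6-/- controls had 2567, 4376 and 3870 CPM, and treated Ptk6-/- males 4943, 4226 and 6057 CPM. The log2 fold changes with succinate were 0.01 in wild type and 0.53 in Ptk6-/- males, and neither passed the test. The succinate effect in males minus that in females was 2.16 ± 0.67 on the log2 scale (edgeR, adjusted p = 0.284, 0.00417 before adjustment). Over all mice the log2 fold change with succinate was -0.83 ± 0.33 (edgeR, adjusted p = 0.237, 0.0222 before adjustment). By genotype, Fabp2 was lower in Ptk6-/- than wild type control males without overlap, by a log2 value of -0.64 ± 0.26 (edgeR, adjusted p = 0.170, 0.0371 before adjustment). An offset for gene length took this value to -0.27.

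These values of Fabp2 depended on single libraries. Without female wild type succinate replicate 2, the library with heart markers, the log2 values were -1.56 in wild type females, -0.72 for succinate over all mice and 1.95 for the difference between sexes, and none was called. Leaving out female wild type succinate replicate 3 left no library with lung signal among the wild type females. The treated group was then replicates 1 and 2, of which replicate 2 is the library with heart markers. In that fit the Fabp2 log2 fold change was -3.07 in wild type females (edgeR, adjusted p = 0.0386), -1.10 for succinate over all mice (0.0411) and 2.72 for the difference between sexes (0.0446), and Fabp2 was then called in each. Over all libraries left out in turn, the adjusted p of these values lay between 0.0386 and 1.00, 0.0411 and 0.400, and 0.0446 and 0.541. Without female Ptk6-/- control replicate 3, Fabp2 was called lower in Ptk6-/- control females (log2 fold change -1.82, edgeR, adjusted p = 0.0275), where all 3 against 3 libraries gave -0.93. That library had the highest enterocyte and goblet cell marker sums in FPKM of all, at 16824 and 7615. As TMM-normalized CPM its goblet sum was again the highest and its enterocyte sum (50845) was second to male Ptk6-/- succinate replicate 1 (52729). The length slope of female Ptk6-/- control replicate 3 was -0.156. It was 0.118 and 0.191 in replicates 1 and 2 of that group, and -0.026, -0.150 and -0.089 in the wild type control females. Without replicate 3 the slopes of the genotypes thus did not overlap. The part of gene length in that fit was not tested.

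Some marker levels moved with Fabp2. The 7 tuft cell markers summed to 25, 23.5 and 9.98 FPKM in the treated wild type females and 15.2, 23.8 and 39.9 FPKM in the treated Ptk6-/- females, against 2.50 to 4.53 FPKM in the control females. The 4 libraries with the lowest Fabp2 were the 4 with the highest tuft cell sums. The 5 markers of the distal small intestine summed to 601, 296 and 1863 FPKM and to 576, 334 and 217 FPKM in these female groups, and to 817 to 3634 FPKM in control females. The 5 smooth muscle markers summed to 1988, 1950 and 1020 FPKM and to 1133, 1546 and 1451 FPKM in the treated groups, against 561 to 1048 FPKM in control females. The enterocyte sum was 7565, 9072 and 16824 FPKM in Ptk6-/- control females, in which the third library also had the most Fabp2, and 16427 FPKM in female wild type succinate replicate 1, where Fabp2 was at 1632 CPM. As TMM-normalized CPM the enterocyte sums were 37294, 28115 and 32709 in treated wild type females, against 45107, 43659 and 46794 in their controls. Treated Ptk6-/- females had 22467, 19237 and 21326, the lowest sums of all libraries, against 23859, 33001 and 50845 in their controls. On this scale the enterocyte markers were thus lower with succinate in females of both genotypes, without overlap. So female wild type succinate replicate 3 had the lowest tuft sum and the highest distal sum of the treated females, as well as the highest Fabp2. Whether cell composition or the position of the tissue piece took part in the Fabp2 values was not tested.

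**Figure D4:**
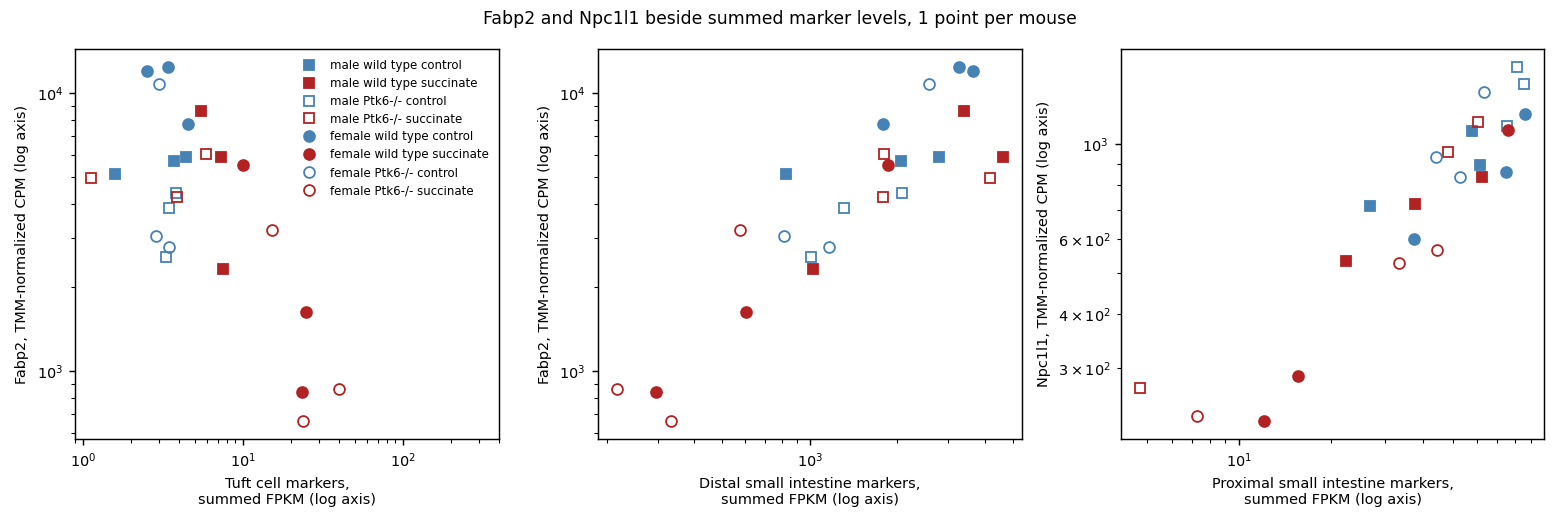
Fabp2 CPM against the summed FPKM of tuft cell markers and of distal small intestine markers, and Npc1l1 CPM against that of proximal small intestine markers, with 1 point per mouse and all axes logarithmic. Libraries of treated females with tuft sums of 23.5 to 39.9 FPKM have 663 to 1632 CPM of Fabp2.

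Fabp1 had its higher values in females on succinate. It was at 285, 189 and 121 CPM in treated wild type females against 105, 115 and 144 CPM in their controls, and at 176, 96.3 and 272 CPM in treated Ptk6-/- females against 48.4, 60.3 and 213 CPM. Both pairs overlapped, through 1 low treated library in wild type mice and 1 high control in Ptk6-/- mice. Male wild type libraries had 94.3, 77.6 and 64.8 CPM as controls and 61.4, 142 and 81.8 CPM with succinate, and male Ptk6-/- libraries had 75.4, 93.8 and 107 CPM as controls and 139, 74.1 and 176 CPM with succinate. Over all mice the log2 fold change with succinate was 0.56 ± 0.24 (edgeR, adjusted p = 0.267, 0.0327 before adjustment). Males minus females gave -0.60 ± 0.24 (edgeR, adjusted p = 0.260, 0.0235 before adjustment). These values were 0.57 and -0.60 without female wild type succinate replicate 2. In control females without Ptk6-/- replicate 3, Fabp1 was called lower in Ptk6-/- mice (log2 fold change -1.10, edgeR, adjusted p = 0.0275), against -0.16 with all libraries. The length slopes given for Fabp2 apply to that fit too.

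Among the membrane genes, Npc1l1, the brush border protein through which dietary cholesterol enters, had the lowest values in treated mice. In Ptk6-/- females it was at 565, 232 and 528 CPM with succinate and at 835, 1324 and 934 CPM without, and the groups did not overlap. The log2 fold change was -1.25 ± 0.43 (edgeR, adjusted p = 0.418, 0.0200 before adjustment). Wild type females had 288, 226 and 1080 CPM with succinate and 1171, 601 and 861 CPM without, so that 1 treated library lay among the controls. Treated males had 835, 725 and 532 CPM as wild type and 269.9, 959 and 1124 CPM as Ptk6-/-. Male controls had 718, 892 and 1072 CPM as wild type and 1102, 1376 and 1511 CPM as Ptk6-/-, a difference without overlap of 0.56 ± 0.20 on the log2 scale (edgeR, adjusted p = 0.126, 0.0212 before adjustment). The length slopes of these male control groups did not overlap either.

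Over all mice the Npc1l1 log2 fold change with succinate was -0.77 ± 0.26 (edgeR, adjusted p = 0.174, 0.00815 before adjustment). Its sign was negative in each of the 4 pairs of groups, with values of -0.37, -0.76, -0.70 and -1.25 in wild type males, Ptk6-/- males, wild type females and Ptk6-/- females by edgeR. On the scale of log2(FPKM + 1) with limma the value in wild type males was 0.015, where the median of all genes was 0.25. Without female wild type succinate replicate 2 the value over all mice was -0.68 and that in wild type females -0.34. Without female wild type succinate replicate 3, the wild type library with lung signal, Npc1l1 was called over all mice at -1.03 (edgeR, adjusted p = 0.00990). That fit kept replicate 2 of the group, the library with heart markers. Over the libraries left out in turn the adjusted p reached 0.315. The 4 libraries with the lowest Npc1l1, at 226 to 288 CPM, had the 4 lowest sums of the 5 proximal small intestine markers, at 4.73 to 15.6 FPKM, and the median over all libraries was 50.5 FPKM. One of them, male Ptk6-/- succinate replicate 1, had 4.73 FPKM of proximal and 4177 FPKM of distal markers, and these FPKM were lowered by its scaling relative to TMM. Summed as TMM-normalized CPM, the proximal markers were at 114 in that library (median 407), where the lowest were 47.8 in female Ptk6-/- succinate replicate 2, and its distal markers were at 9425, the highest of all. The same 4 libraries had the lowest proximal sums on this scale. The other 3, all treated females, had distal sums of 601, 296 and 334 FPKM, under the median of 1789 FPKM. The part of tissue position in these values was not tested.

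Cd36 was at 4.79 to 25.1 CPM in 23 libraries and at 389.9 CPM in female wild type succinate replicate 2. The other treated wild type females had 5.20 and 24.6 CPM, their controls 10.3, 6.72 and 18.2 CPM, and treated Ptk6-/- females 20.4, 4.79 and 7.94 CPM. All 4 values of Cd36 with an unadjusted p under 0.05 contained that library. The log2 fold change with succinate in wild type females was 3.58 ± 1.38 with it (edgeR, adjusted p = 0.620, 0.0332 before adjustment) and 0.37 ± 0.67 without it. Ptk6-/- against wild type under succinate in females gave -3.62 ± 1.42 with it (edgeR, adjusted p = 0.931, 0.0356 before adjustment) and -0.44 ± 0.80 without it. The interaction of genotype and succinate in females was -3.89 ± 1.56 with it (edgeR, adjusted p = 0.752, 0.0280 before adjustment) and -0.72 ± 0.92 without it. The difference of the succinate effect between the sexes was -2.0 ± 0.85 with it (edgeR, adjusted p = 0.532, 0.0283 before adjustment) and -0.39 ± 0.52 without it. That library had the highest heart marker sum (4203 FPKM) and the highest sum of the 5 endothelium markers (28.4 FPKM, the next being 13.6 FPKM), and Cd36 is used in both tissues. The part of either in the Cd36 values was not tested.

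Scarb1 was low in all libraries, at 4.17 to 15.9 CPM (23 to 560 counts), and its highest value came from that same library. Its log2 fold change with succinate over all mice was 0.03 ± 0.17, and no comparison gave an unadjusted p under 0.05.

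Acsl5, which activates long-chain fatty acids to acyl-CoA, was at 544 to 1307 CPM. Its lowest values were 544 CPM in female wild type succinate replicate 2 and 586 CPM in male Ptk6-/- succinate replicate 1. In females, succinate-treated wild type mice had 805, 544 and 1081 CPM and their controls 1134, 1262 and 1306 CPM, which did not overlap (log2 fold change -0.59, edgeR, adjusted p = 0.715, and -0.36 without treated replicate 2). Over all mice the log2 fold change with succinate was -0.13 ± 0.15.

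The acyltransferases of triglyceride synthesis followed different orders. Mogat2, which makes diacylglycerol from absorbed monoacylglycerol, had a log2 fold change with succinate of -0.49 ± 0.18 over all mice (edgeR, adjusted p = 0.209, 0.0149 before adjustment). It was at 261, 172 and 315 CPM in treated and 430, 349 and 460 CPM in control wild type females, without overlap, and without treated replicate 2 the log2 values were -0.49 in these females and -0.44 over all mice. Without female Ptk6-/- control replicate 3 the value over all mice was -0.31. Ptk6-/- females had 238, 144 and 211 CPM with succinate and 229, 274 and 751 CPM without, and the 751 CPM of control replicate 3 was the highest of all libraries. In males, wild type mice had 318, 352 and 401 CPM as controls and 253, 351 and 318 CPM when treated, and Ptk6-/- mice 246, 359 and 373 CPM and 244, 332 and 449.7 CPM. The succinate effect in males minus that in females was 0.83 ± 0.37 (edgeR, adjusted p = 0.551, 0.0351 before adjustment), and it was 0.45 without female Ptk6-/- control replicate 3.

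Dgat1, which completes triglyceride in the endoplasmic reticulum, was at 491 to 1242 CPM. Treated wild type males had 504, 1242 and 1124 CPM and their controls 689, 817 and 812 CPM, with a log2 fold change of 0.30. Without male wild type succinate replicate 1 this was 0.57 (edgeR, adjusted p = 0.0398), which stays under 2-fold. Dgat2, which serves the same last step from a separate protein family, was at 63.2 to 155 CPM and its log2 fold change with succinate over all mice was -0.18 ± 0.16. Mogat2 and Dgat2 belong to that one family and are neighbours on chromosome 7 (GRCm39, chr7:98868291-98887826 and chr7:98802865-98831926, both on the minus strand), 36364 bases apart.

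Plin2, whose protein coats lipid droplets, had a negative log2 fold change for Ptk6-/- against wild type in all 4 pairs of groups by edgeR, near 0 in treated females. Control males had 53.0, 62.8 and 57.8 CPM as wild type and 47.1, 48.9 and 42.1 CPM as Ptk6-/-, without overlap, and differed by -0.35 ± 0.11 on the log2 scale (edgeR, adjusted p = 0.106, 0.0151 before adjustment). Their length slopes did not overlap either. Control females had 60.0, 45.3 and 65.9 CPM as wild type and 41.6, 29.4 and 29.0 CPM as Ptk6-/-, again without overlap, and -0.74 ± 0.25 (edgeR, adjusted p = 0.385, 0.0206 before adjustment), and here lung signal was in all 3 Ptk6-/- and in none of the 3 wild type libraries. Treated males had 48.5, 92.7 and 52.8 CPM against 25.8, 40.8 and 48.3 CPM. Treated females had 54.6, 39.3 and 55.4 CPM against 57.6, 57.1 and 33.5 CPM, with a log2 fold change of -0.01. Over all mice it was -0.47 ± 0.14 (edgeR, adjusted p = 0.284, 0.00344 before adjustment), and between -0.52 and -0.38 with each library left out in turn. On the scale of log2(FPKM + 1) with limma, the value was 0.0759 in control males, where the median of all genes was 0.25, and 0.15 in treated females, where that median was 0.13. Relative to the median of all genes, Plin2 thus stayed lower in control males on this scale, and not in treated females.

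The other genes of the pathway were read from 4 lists. Of the 15 tested genes of fatty acid binding, uptake and activation (16 listed), 1 was called up with succinate over all mice and 0 down, 0 up and 1 down in Ptk6-/- control males, and 0 up and 1 down in males against females. In each case the gene was Clps, colipase, the cofactor of pancreatic lipase. For succinate over all mice, 5 genes of this list were up and 1 down at an unadjusted p under 0.05, beside 16.1% of all genes tested, and the list's median log2 fold change was 0.36. Without female wild type succinate replicate 2 these were 3 up and 1 down, and the median was 0.19. The heart-type binding protein gene Fabp3 was not called with all libraries (log2 fold change 3.03, edgeR, adjusted p = 0.0642), was called without replicate 1 (3.17, 0.0284) or replicate 3 (3.16, 0.00440) of the same group or with no filter on low counts (3.02, 0.0335), and had 1.04 without replicate 2 (adjusted p = 0.261).

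In the same comparison edgeR called 0 of the 16 tested glycerolipid synthesis genes (18 listed), and 4 were up and 3 down at such a p with all libraries and also without that library. Of the 18 tested lipid droplet and lipolysis genes, 0 were called, 2 were up and 1 down at such a p, and 1 was up and 1 down without that library. Of the 24 genes of sterol transport and lipid transcription regulators, 0 were called, 1 was up and 10 were down at such a p (8 down without that library), and the median was -0.28 (-0.25). Of all genes tested, 16.1% had such a p with all libraries. DESeq2 and limma voom also called 0 in these 3 lists for succinate over all mice. In the regulator list, the bile acid receptor gene Nr1h4 (log2 fold change -0.75, edgeR, adjusted p = 0.0179) and the sterol exporter gene Abca1 (-0.86, adjusted p = 0.0428) passed the adjusted threshold but not the 2-fold change. Their adjusted p by edgeR were 0.0234 and 0.0733 without female wild type succinate replicate 2. When replicate 3 of the same group was dropped instead, 13 genes of the regulator list were down at such a p, and the sterol exporter subunit gene Abcg8 was called down (log2 fold change -1.11, edgeR, adjusted p = 0.00934). More genes over the whole genome were also called in that fit than with all libraries, so the 13 are not read as a result about the list. Fabp3, Nr1h4, Abca1 and Abcg8 were chosen after their values were seen. In other comparisons the share of a list at such a p ran from 0% to 53.3%. The highest was for fatty acid binding, uptake and activation with succinate in wild type females (beside 7.77% of all genes). It was 50% for glycerolipid synthesis with succinate in Ptk6-/- females (10.7%) and for the regulators by genotype in control males (25.2%).

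Clps was at 2014, 1004 and 84.9 CPM in treated and 68.6, 111 and 79.2 CPM in control wild type females. Ptk6-/- females had 239, 1591 and 394 CPM with succinate and 55.1, 29.0 and 201 CPM without, and the male libraries stayed between 30.2 and 198 CPM. So 5 of 6 treated female libraries lay above all control females and female wild type succinate replicate 3 lay among them, and the wild type groups overlapped through that library. Over all mice Clps rose with succinate by 2.06 ± 0.44 on the log2 scale (edgeR, adjusted p = 0.0239). Males minus females gave -1.96 ± 0.44 (edgeR, adjusted p = 0.0486), and Ptk6-/- minus wild type control males gave -1.07 ± 0.19 (edgeR, adjusted p = 0.0322). Without female wild type succinate replicate 2, the succinate value was 2.07 (edgeR, adjusted p = 0.0385) and that for sex -1.96 (0.0737). The Clps calls depended on the processing and on single libraries. With the replicate block the adjusted p by edgeR were 0.0504 for succinate, 0.0815 for sex and 0.0539 for genotype in control males, so that none was called. For that genotype value, the gene length offset gave -0.58 (edgeR, adjusted p = 0.185) and limma on log2(FPKM + 1) gave -0.64 (adjusted p = 0.701). When 1 library at a time was dropped, the call for succinate was lost in 7 of 24 fits (log2 fold change 1.77 to 2.35, adjusted p up to 0.0583), that for sex in 19 of 24 (-2.16 to -1.64, up to 0.122) and that for genotype in 5 of 6 (-1.29 to -0.93, up to 0.123). The 7 libraries were female Ptk6-/- succinate replicate 2, female wild type succinate replicate 1, male wild type succinate replicate 3, replicates 2 and 3 of the male Ptk6-/- controls and replicates 2 and 3 of the male wild type controls. The 4 Paneth cell markers had their highest sums, 17370 and 13420 FPKM (median 5673), in the libraries with 1591 and 2014 CPM of Clps. Female wild type succinate replicate 3, with 84.9 CPM of Clps, had 4681 FPKM of them, and the lowest tuft and highest distal sums of the treated females. Summed as TMM-normalized CPM, the Paneth cell markers were at 6419 in female wild type succinate replicate 2, which had 1004 CPM of Clps. Replicate 3 had 6606 on that scale (median 8772), so the Paneth sums did not follow Clps in every library. The part of cell composition in the Clps values was not tested. The pancreas markers found in the file, 4 of 6, summed to at most 0.286 FPKM in any library.

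The genes most alike to each member over the 24 libraries were found by Pearson's r of log2(CPM + 1) among 15679 genes. These values are descriptions, since libraries of 1 group share treatment and normalization. Npc1l1 was most like Abcg8 (r = 0.97), a subunit of the sterol exporter of the same cell surface, followed by Dpyd and Bcar1. Fabp2 was most like Fam151a (0.96), Cndp2 (0.95) and Pepd (0.94), of which the last 2 encode peptidases. For Fabp1 the nearest were the apolipoproteins Apoc2 (0.85) and Apoa4 (0.81) and the retinol binding protein Rbp2 (0.80). Mogat2 was nearest Nek3 (0.94), Dgat1 nearest the peptidase Dpep1 (0.91), Acsl5 nearest Gimd1 (0.91) and Plin2 nearest Lzic (0.85). Dgat2 was nearest Slc23a4 (0.84) and Scarb1 nearest Zfp975 (0.77). Cd36 was nearest Adhfe1 (0.93), Adgrf5 and Perm1 with all libraries, and nearest Scd1 (0.88), Car3 and Cyp2c66 without female wild type succinate replicate 2. When that library was left out (23 libraries), the nearest gene was the same for Fabp1, Fabp2, Dgat2 and Plin2, and was Dpyd for Npc1l1 (0.97, with Abcg8 next at 0.97), Dhrs11 for Mogat2 (0.95), Sbds for Acsl5 (0.89) and Lama1 for Scarb1 (0.74). Between members the highest r was that of Fabp2 with Mogat2, at 0.85 with all libraries and 0.83 without that library. Next came Fabp2 with Dgat1 (0.73) with all libraries, and Dgat2 with Npc1l1 (0.80) and Cd36 with Npc1l1 (0.71) without it, where these pairs had 0.67 and -0.06 with it. Fabp1 and Fabp2 had -0.12 over all libraries and -0.03 without it.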

How the data were processed

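RNA sequencing of the distal jejunum of 24 mice was analysed from 2 deposited tables. Per the study's methods, stranded poly(A) libraries were trimmed with Cutadapt, checked with FastQC, aligned with HISAT2 and assembled with StringTie, and the submitters' processing notes name the GRCm39 build. The authors deposited a count per gene with no normalization, and FPKM values computed with StringTie and ballgown. The program that made the counts is not given in the sources used here. Of the count columns, 0 were left unused, and the main tests used every library.

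Counts were tested in R 4.3.3 with edgeR 4.0.16 (TMM, quasi-likelihood) on genes that reached 10 counts in 3 or more fitted libraries. Pairs of groups were fitted alone, contrasts of 4 groups in 12 libraries, and contrasts over all mice in 24 libraries. P-values were Benjamini-Hochberg adjusted over all genes, and a gene was called under 0.05 with at least a 2-fold change. CPM were scaled by TMM over all 24 libraries. DESeq2 1.42.0, limma 3.58.1 (voom, or log2 of FPKM), other filters, a gene length offset, a replicate block and each library left out were alternatives. The likeness without 1 library, the alternatives for Clps and the pathway lists, and marker sums as CPM, were added after the values were seen. The main edgeR fit was tested on simulated data for 3 comparisons, and the alternatives were not. The titles number the mice within a group; no source says which were housed or processed together.

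All members are named with levels, and full statistics are given where a member was called or had an unadjusted p under 0.05. Pathway genes are named where called, apart from Fabp3, Nr1h4, Abca1 and Abcg8, which were not called in the main fits and were added after their values were seen. The members and lists were chosen with earlier results of these data known.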

Additional observations from a re-analysis of the deposited data

How the results depend on the processing

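The number of members called was 0 in all 15 comparisons, where edgeR called 0% to 0.739% of all genes tested, and it stayed 0 in 340 of 345 alternatives. With limma voom it was 2 in the genotype comparison of control females (Fabp2 and Fabp1), where voom called 1972 genes in all. With libraries left out in turn it ranged from 0 to 2 for genotype in control females, from 0 to 1 for succinate in wild type females, from 0 to 2 for succinate over all mice and from 0 to 1 for the difference of the succinate effect between the sexes. Each exception arose without female Ptk6-/- control replicate 3 (the first) or female wild type succinate replicate 3 (the others), where 1808, 597, 539 and 163 genes were called in all, and the cause was not tested. At adjusted p under 0.05 without the fold threshold, edgeR gave 0 members in every comparison and DESeq2 gave 3 in control males. Limma voom gave 4 for genotype in control females, 3 in control males, 2 in succinate-treated males and 4 over all mice, and 3 for succinate in wild type males and 3 over all mice. Shares of all genes without the fold threshold are not given here. With it, voom called 1972, 577, 1799 and 1539 genes in all for genotype and 1498 and 798 for succinate, in the same order. DESeq2 called 311 in control males. So these member counts are not read as a result about the members. Of the 18 log2 fold changes with an unadjusted p under 0.05, that of Plin2 in control males had the opposite sign with limma on log2 of FPKM, at 0.0759 with a pseudocount of 1 and 0.0946 with a pseudocount of 0.1. The medians of all genes in these fits were 0.25 and 0.40, so Plin2 was still under them. These FPKM fits moved the median of all genes by -0.71 to 0.29 and by -1.10 to 0.44 across comparisons.

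For Clps, the settings other than leaving out libraries lost 2 of 10 calls for succinate over all mice, 3 of 10 for sex and 5 of 10 for genotype in control males. These alternatives for Clps were chosen after seeing the data.

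With the replicate block the number of members called was 0 in all 15 comparisons, and with the gene length offset added it was 0 as well. In these fits at most 113 and 144 genes were called in all. Mice of the same number did not deviate together: the correlations of their deviations lay between -0.36 and 0.23 over 8 pairs of groups, and in 0 of the 8 were all 3 over 0.1. Precision differed with the spread in a group: the standard error of the Fabp2 log2 fold change was 0.72 for succinate in wild type females and 0.26 for genotype in control males.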
